A study of Mus musculus with 2 samples.

Results

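Foamy macrophages of the mouse aorta, marked by Trem2 and by Gpnmb, Spp1, Mmp12 or Ctsk, were 274 of the 24504 barcodes kept from 2 single-cell RNA libraries. There were 156 of them among 12466 barcodes of the library labelled treated and 118 among 12038 barcodes of the library labelled control. Members were chosen from their own transcripts, counted as unique molecular identifiers (UMIs, 1 per captured mRNA molecule). Each had at least 500 detected genes and at most 15% mitochondrial UMIs. Each had at least 3 UMIs summed over C1qa, C1qb, C1qc, Csf1r and Cd68, at least 5 over Gpnmb, Ctsk, Mmp12 and Spp1 (the foam sum), and at least 1 of Trem2. A member had at most 3 UMIs over Lyve1, Folr2, F13a1, Cbr2 and Cd163, which mark resident macrophages, at most 1 over the cell cycle genes Mki67, Top2a and Birc5, and 0 of Cd3e and Cd79a, which mark T and B cells. The levels of these genes in the members are therefore a description and no finding.

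The study profiled aortic leukocytes carrying the surface protein CD45, from mice given ZnDPA@siIRF5 and from a control group, with a droplet kit that counts 3' ends of polyadenylated RNA. The design text puts the question at the level of macrophages in lesions of the aorta: what the preparation does to them in molecular terms. The labels name neither the number of mice pooled into a library nor their strain, genotype, diet, sex or age, nor what the control mice received. With 1 library per group there was no replicate to test against. Every interval below is a 95% interval that covers counting error only, cells of 1 library were not treated as replicates, and a difference between the libraries cannot be told apart from a difference between the mice or the 2 preparations of cells.

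Macrophages of the arterial wall become foam cells when they take up modified lipoproteins through scavenger receptors, hydrolyse the cholesteryl esters in lysosomes, store the excess in droplets and export cholesterol through ABCA1 and ABCG1. TREM2 is a receptor for lipids and lipoproteins that signals through TYROBP and SYK, and in mouse atherosclerosis it marks macrophages rich in lysosomal and lipid handling transcripts. IRF5, the target that the name siIRF5 gives, is a transcription factor activated below Toll-like receptors that switches on inflammatory cytokine and interferon response genes.

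The promoters of genes on which the results turn are shown here, since 2 of the groups described below are those for which a bound motif is best known. Lysosomal genes are known for the E-box CACGTG, read by TFEB and its relatives, and interferon response genes for GAAANNGAAA, read by IRF factors. Windows are the 250 bases before the RefSeq transcript start in GRCm38.p6, given 5' to 3' on the strand of the gene, with the motif named for each set, on either strand, in capitals. Those of 3 genes with more transcript in foamy than in other macrophages show CACGTG. They are Ctsd, the gene of the lysosomal protease cathepsin D (chr7:142387828-142388077, minus strand), Lamp1 for a lysosomal membrane protein (chr8:13158911-13159160, plus) and Atp6v0b for a subunit of the vacuolar proton pump (chr4:117887330-117887579, minus).
Ctsd: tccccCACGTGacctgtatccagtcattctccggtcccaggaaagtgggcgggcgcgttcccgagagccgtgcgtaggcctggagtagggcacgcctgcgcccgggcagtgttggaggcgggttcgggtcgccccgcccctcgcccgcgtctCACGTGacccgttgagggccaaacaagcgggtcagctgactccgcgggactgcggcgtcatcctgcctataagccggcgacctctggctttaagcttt
Lamp1: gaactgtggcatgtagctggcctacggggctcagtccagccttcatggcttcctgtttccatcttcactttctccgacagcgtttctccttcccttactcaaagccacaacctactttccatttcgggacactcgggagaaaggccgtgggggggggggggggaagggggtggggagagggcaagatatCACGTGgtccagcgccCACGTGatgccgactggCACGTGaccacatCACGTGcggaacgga
Atp6v0b: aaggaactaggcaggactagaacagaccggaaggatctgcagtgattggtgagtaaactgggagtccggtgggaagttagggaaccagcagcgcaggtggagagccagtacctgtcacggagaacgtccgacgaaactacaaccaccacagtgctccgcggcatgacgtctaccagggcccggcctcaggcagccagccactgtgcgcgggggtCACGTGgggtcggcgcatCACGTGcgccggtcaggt
The windows of 3 interferon response genes with higher levels in the library labelled treated show GAAANNGAAA. They are Cxcl10, a chemokine gene (chr5:92348890-92349139, minus), Gbp2, a guanylate-binding protein gene (chr3:142620413-142620662, plus), and Ifit3 (chr19:34583279-34583528, plus).
Cxcl10: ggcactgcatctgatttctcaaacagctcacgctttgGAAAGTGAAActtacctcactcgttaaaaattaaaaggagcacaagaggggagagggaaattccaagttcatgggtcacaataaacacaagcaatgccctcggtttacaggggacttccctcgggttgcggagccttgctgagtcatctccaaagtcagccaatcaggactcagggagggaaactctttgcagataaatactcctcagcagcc
Gbp2: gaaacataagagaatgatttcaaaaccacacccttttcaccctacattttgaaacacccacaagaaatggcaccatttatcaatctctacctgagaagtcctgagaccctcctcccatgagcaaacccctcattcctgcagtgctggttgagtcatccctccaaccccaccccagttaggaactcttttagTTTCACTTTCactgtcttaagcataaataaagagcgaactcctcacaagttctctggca
Ifit3: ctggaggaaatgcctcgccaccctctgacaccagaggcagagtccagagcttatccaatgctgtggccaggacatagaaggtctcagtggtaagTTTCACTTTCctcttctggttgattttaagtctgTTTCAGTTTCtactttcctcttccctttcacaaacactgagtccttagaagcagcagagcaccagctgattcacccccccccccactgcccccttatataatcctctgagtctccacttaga
The windows printed were picked for holding the motif. Of 27025 genes with 1 or more windows, 6.86% had CACGTG and 3.46% had GAAANNGAAA in any of them, searched on both strands. CACGTG stood in 5 of 11 cathepsin and cystatin genes with a window, in 6 of 16 lysosomal enzyme and membrane genes, in 2 of 11 proton pump genes and in 0 of 14 genes of the foam cell program. GAAANNGAAA stood in 9 of 15 interferon gamma response genes and in 6 of 17 type I interferon response genes, and in 0 of 8 genes of MHC class II presentation. These are letter matches in a window and say nothing of binding in these cells.

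Foamy macrophages were the deepest class compared. The median treated member held 8899 UMIs and the median control member 9478, with 2756 and 2897 detected genes and 2.58% and 2.59% mitochondrial UMIs. Other C1q macrophages, defined by the same filters with at least 3 C1q UMIs but a foam sum below 5 or no Trem2, numbered 811 and 433 with medians of 5355 and 5320 UMIs. Since the gate counts raw UMIs, shallow cells reach it less easily. The libraries shared 38 kept barcodes, of which 0 were members in both. Scrublet marked 505 of 13155 treated and 463 of 12516 control barcodes as doublets, 3 and 2 of them members.

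Foamy macrophages were 1.25% of kept barcodes in the library labelled treated (1.06 to 1.46) and 0.980% in that labelled control (0.812 to 1.17), a ratio of 1.28 (0.999 to 1.64). Of barcodes past the sum over C1qa, C1qb, C1qc, Csf1r and Cd68 they were 3.74% of 4172 (3.18 to 4.36) and 4.69% of 2518 (3.89 to 5.59), a ratio of 0.798 (0.624 to 1.02). The direction thus depended on the denominator, and neither ratio's interval left 1 out. A foam sum of 5 or 6 was held by 15 treated and 14 control members, of which 3 and 2 had Gpnmb, and 33 and 13 barcodes with a foam sum of 3 or 4 stayed outside. A single Trem2 UMI admitted 28 and 22 members, and 100 and 40 otherwise eligible barcodes had none. A resident sum above 3 kept out 68 and 36.

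Of the 5 genes that mark the label, the gate asked for Trem2 in every member and reached its foam sum mostly through Spp1, so their presence follows from the choice of cells, while Gpnmb was found in fewer than 50% of members. Trem2, on chr17:48346401-48354147 in GRCm38, stood at 750.5 CPM (UMIs per 1000000 UMIs of the members; 707 to 796) in treated and at 757 CPM (707 to 809) in control members, a log2 ratio of -0.01 (-0.14 to 0.12). Spp1, which encodes the secreted phosphoprotein osteopontin (chr5:104435118-104441050), had a UMI in 91.7% of treated and 91.5% of control members. Gpnmb, a lysosomal and cell surface glycoprotein gene (chr6:49036546-49070929), had one in 48.7% and 39.0%, Mmp12, the macrophage elastase gene (chr9:7344381-7369499), in 42.9% and 38.1%, and Ctsk, the cathepsin K gene (chr3:95499256-95509362), in 25% and 16.9%. After each cell was thinned to 2000 UMIs, which left out 1 treated and 2 control members, Gpnmb was seen in 36.1% (28.6 to 44.2) and 25% (17.4 to 33.9), Spp1 in 83.9% and 82.8%, Mmp12 in 32.9% and 31.9% and Ctsk in 14.2% and 7.76%. In T cells, which should lack these transcripts and whose median depth was 4828 and 4062 UMIs, the unthinned shares were 0.641% and 0.232% for Gpnmb but 8.55% and 8.4% for Spp1, so a single Spp1 UMI in a cell carries little weight. Members with Gpnmb were thus a minority of the foamy macrophages in both libraries, and 76 of the 80 treated and 69 of the 72 control members without it held Spp1.

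Spp1 supplied 83.0% of the 18606 foam sum UMIs of treated members and 82.8% of the 16908 of control members. It was the leading gene of the sum in 117 treated and 94 control members, Mmp12 in 20 and 20, Gpnmb in 15 and 3, and Ctsk in 3 and 0. Spp1 was the only one of the 4 genes in 47 treated and 53 control members, where its median was 22 and 18 UMIs, above the 5 that the gate asked for. All 4 genes were found in 18 treated and 7 control members. Without Spp1 in the sum, 80 treated and 47 control members would still pass. Ctsk was more often found beside Gpnmb: 33 of 76 treated and 12 of 46 control members with Gpnmb held a Ctsk UMI, against 6 of 80 and 8 of 72 without Gpnmb. Both genes enter the foam sum that chose the cells. These shares were not thinned, and members with Gpnmb were deeper, with medians given below. The shares therefore only describe the chosen cells.

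Levels differed between members by orders of magnitude. Spp1 had a median of 23.7 and a highest value of 875 UMIs per 10000 of the cell in treated members, and a median of 23.4 and a highest value of 934 in control members. The quartiles of Spp1 were 8.26 and 121 in treated and 8.02 and 104 in control members, so the libraries overlapped. Gpnmb had a median of 0 in both, the third quartile at 6.28 and 4.58 and a highest value of 82.5 and 71.3. The 10 members with most of a gene held 42.4% of treated and 62.6% of control Spp1 UMIs, and 90.7% and 93.8% of Ctsk UMIs. For Gpnmb the shares were 46.5% and 70.8%, and for Mmp12 57.65% and 76.41%. Sums for Ctsk were therefore set by few cells, and those for Mmp12 and Gpnmb leaned on few cells as well.

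**Figure D1:**
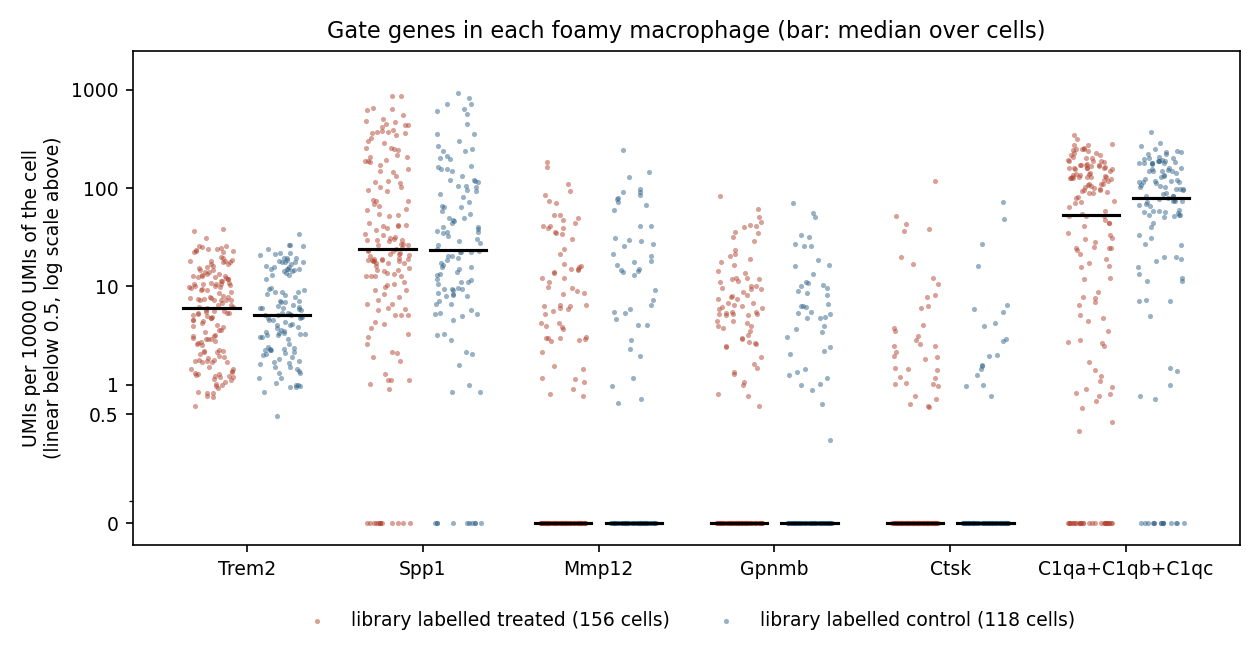
Each point is 1 foamy macrophage (156 treated, 118 control), with its UMIs of a gate gene per 10000 UMIs of the cell on an axis that is linear below 0.5 and logarithmic above; the bar is the median over cells. Spp1 medians are 23.7 and 23.4 in treated and control members, Gpnmb medians are 0 in both, and the C1q sum has a separate group of members near 0.

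Irf5, on chr6:29526625-29541871, was counted in the members at 155 CPM in the library labelled treated (230 UMIs; 136 to 177) and at 136 CPM in that labelled control (156 UMIs; 116 to 160). The log2 ratio of Irf5 was 0.19 (-0.11 to 0.49), and it lay between 0.07 and 0.48 under the other settings tried. Irf5 was thus not lower in treated members, and the interval holds no value below -0.11. Its level in other C1q macrophages was 149 and 136 CPM. An Irf5 UMI was seen in 67.9% of treated and 60.2% of control members, in 25.8% and 23.3% after thinning, and in 7.80% and 4.95% of T cells, or 3.07% and 2.26% after thinning. A 3' count reads the transcript and not IRF5 protein. Because the targeted transcript did not go with the label, the groups are called the libraries labelled treated and control.

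Apoe, which encodes the apolipoprotein that lesional macrophages secrete in large amounts, was nearly missing: 6 UMIs in treated and 6 in control members, or 4.05 and 5.25 CPM. It was as scarce in other C1q macrophages, at 2.96 and 2.80 CPM. The labels give no genotype.

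Set beside other C1q macrophages, foamy macrophages had more transcript of foam cell program and lysosomal genes in both libraries, while other lipid lists stood closer to all genes. Of 7307 genes with enough UMIs, 112 (1.53%) were at least 2-fold higher and 246 (3.37%) at least 2-fold lower in foamy cells in both libraries, and 39.9% were higher by any amount in both. Gate genes were left out of the genes named, but genes that travel with them follow from the choice of cells, so the values describe the class and test nothing. The comparison cells were also chosen on C1q, which the members were not.

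Of the 20 genes of the foam cell program outside the gate, 12 were at least 2-fold higher in foamy cells in both libraries against the 1.53% of all genes, and 19 were higher by any amount. Cd9, which encodes a tetraspanin (chr6:125460266-125494791), stood at 2075 CPM in treated foamy cells against 324 in other C1q macrophages, and at 2021 against 266 in the control library. Its log2 ratios were 2.68 (2.59 to 2.77) and 2.92 (2.80 to 3.05), and 145 treated and 105 control members held it. Fabp5, for a fatty acid binding protein (chr3:10012548-10016607), stood at 2190 against 376 CPM and at 1678 against 295 CPM. These were ratios of 2.54 (2.46 to 2.63) and 2.51 (2.38 to 2.63) for Fabp5. Cd9 was thus broad over the cells, and Fabp5 was seen in 107 treated and 73 control members. Lgals3 (galectin 3) had ratios of 1.65 and 2.04, Cd63 of 1.83 and 1.70, Lpl (lipoprotein lipase) of 0.70 and 1.75 and Itgax (the integrin CD11c) of 1.5 and 1.53. Fabp4, another fatty acid binding protein gene, was the 1 program gene lower in foamy cells in both, at -0.19 and -0.57. The lipid droplet coat gene Plin2 was higher by little, at 0.39 and 0.37.

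Lysosomal transcripts were higher as a group. Among 12 measured cathepsin and cystatin genes, 3 were at least 2-fold higher and 10 higher by any amount in both libraries, with list medians of 0.90 in treated and 0.83 in control cells against -0.01 and 0.07 over all genes. Ctsd, for an aspartic protease of the lysosome whose window above has 2 CACGTG, had ratios of 1.75 and 1.85, Ctsl of 1.95 (1.85 to 2.05) and 1.87 (1.74 to 2.0), and Ctsb of 1.23 and 1.33. Ctsc went the other way, at -0.32 and -0.73. Against macrophages with a resident sum above 3 and a foam sum below 5, the ratios of Ctsl were smaller, at 0.99 and 0.64. Of 21 lysosomal enzyme and membrane genes, 19 were higher in both libraries, 2 of them at least 2-fold, and of 16 proton pump genes 14 were higher, Atp6v0b with ratios of 0.64 and 0.74. Lamp1, with 4 CACGTG, was moderate at 0.53 and 0.62. Atp6v0d2 (chr4:19876841-19922605), a pump subunit best known from osteoclasts, stood at 109 against 5.50 CPM in the treated and at 90.1 against 2.0 CPM in the control library, ratios of 4.31 (3.71 to 4.97) and 5.49 (4.22 to 7.15). It came from 35 treated and 22 control members.

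Other lipid lists differed less. Of 11 lipid uptake genes, 6 were higher and 4 lower in both libraries, 0 at least 2-fold higher and 1 at least 2-fold lower. Of 14 lipid storage and hydrolysis genes, 8 were higher and 5 lower, 2 of them at least 2-fold higher. Of 8 sterol synthesis genes, 4 were higher and 3 lower, with medians of -0.15 in treated and 0.26 in control cells. Of all genes 39.9% were higher and 35.9% lower in both libraries. Of 13 efflux and LXR target genes, 7 were higher in both libraries and 0 by 2-fold. Abcg1 had ratios of 0.72 and 0.96 and Abca1 of 0.33 and 0.26, both for cholesterol exporters. Lipa, for the acid lipase that frees cholesterol from its esters in the lysosome, had 1.27 and 1.65. Oxidative phosphorylation was higher in 19 of 20 genes with medians of 0.35 and 0.54, and glycolysis in 12 of 14 with medians of 0.60 and 0.77. TREM2 receptor and signalling genes outside the gate were not higher as a list: 5 of 14 were higher and 6 lower in both libraries, and Tyrobp, for the adaptor of TREM2, had 0.36 and 0.24.

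The highest ratio outside the gate belonged to Npy, for neuropeptide Y, at 8.26 (5.75 to 13.6) in the treated and 6.24 (4.33 to 9.31) in the control library. Npy came from 19 treated and 15 control members, with 64.7 and 60.3 CPM in foamy cells against 0.212 and 0.80 CPM in other C1q macrophages. Syngr1, for a vesicle membrane protein, had 158 against 14.4 CPM and 144 against 4.0 CPM, and was seen in 74 treated and 54 control members. Mfge8 (chr7:79133768-79149060), which bridges dying cells to phagocytes, had 3.69 (3.14 to 4.28) and 2.39 (1.73 to 3.08), but 1 cell held 40.6% of treated and 58.2% of control Mfge8 UMIs. Rnf128, Fbxo32, Ahnak2, Lhfpl2, Plpp3, Slc6a8, Fat3, Cdk18, Mamdc2, Olfml3, Klc4 and Anpep, also among the 20 highest, had ratios of 1.80 to 3.96 in the treated and of 2.03 to 4.32 in the control library. Plpp3, with the 3.96, came from 13 treated members, 1 of which held 57.0% of its treated UMIs. Against macrophages with a resident sum above 3 and a foam sum below 5, Mamdc2 had 2.03 in the treated and only 0.235 in the control library. The rest of the genes from Rnf128 to Anpep had 2.135 to 5.01 and 1.945 to 4.77 there. Dcn, the matrix proteoglycan decorin, rested on 7 treated and 5 control cells, with 93% of treated UMIs in 1 of them. Fibroblast markers summed to 96.4 and 141 CPM in the members, 98.6% and 98.1% of it in 5 cells, and the part of such cells in the Dcn value was not tested.

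**Figure D2:**
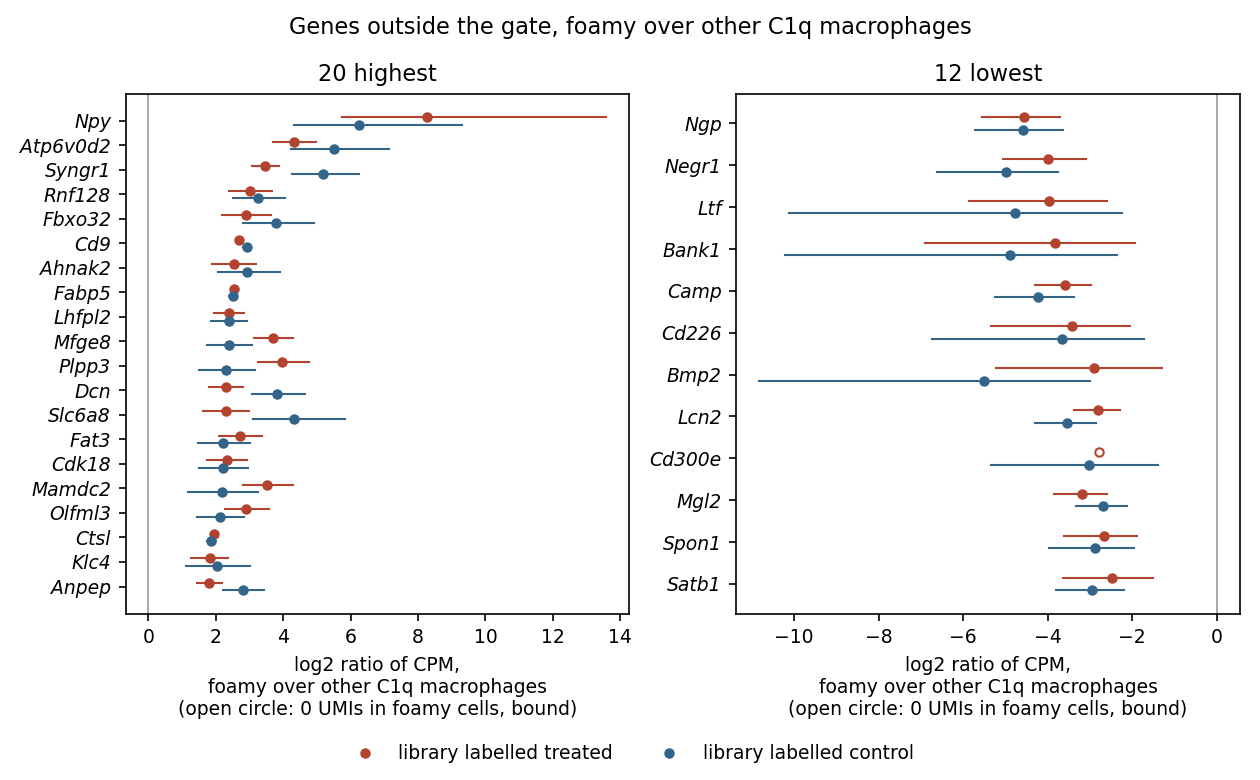
Points are log2 ratios of CPM, foamy over other C1q macrophages, in the treated library (upper of each pair) and in the control library (lower), with 95% counting intervals, for the 20 highest and 12 lowest genes by the smaller ratio; the open circle is a bound for 0 UMIs. Cd9, Fabp5 and Ctsl have the narrowest intervals, and Npy reaches 8.26 and 6.24.

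Antigen presentation, interferon response and chemokine genes were lower in foamy than in other C1q macrophages. Of 11 measured genes of MHC class II presentation, 10 were lower in both libraries and 6 at least 2-fold, against 35.9% and 3.37% of all genes. H2-Ab1, for a class II beta chain, had ratios of -1.14 and -1.83 and Cd74, for the invariant chain, of -0.90 and -1.70. All 22 measured type I interferon response genes were lower, 6 by 2-fold in both, with medians of -0.97 and -1.32, and so were 13 of 16 interferon gamma response genes. Of 18 chemokine genes 16 were lower and 9 at least 2-fold, among them Ccl7 at -2.69 and -1.58, Ccl8 at -2.09 and -2.76 and Ccl5 at -2.02 and -2.77. Immediate early and heat shock genes were lower in 16 of 17. Mgl2, for a lectin of other macrophages and dendritic cells, stood at 15.5 and 22.7 CPM in foamy cells against 141 and 148 CPM.

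The 12 lowest ratios included the neutrophil granule genes Ngp (-4.55 and -4.57), Ltf, Camp and Lcn2, and the B cell gene Bank1. Neutrophil markers summed to 2347 and 401 CPM in foamy cells against 4449 and 4670 CPM in other C1q macrophages, and to 3414 and 3991 CPM in T cells. Foamy cells thus held less of RNA that is also found in T cells, and its part in these ratios was not tested. Negr1, Cd226, Bmp2, Cd300e, Spon1 and Satb1 completed the 12, with Cd300e at 0 UMIs in treated members.

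Within the class, single genes were ranked by how they followed the foam sum. Over members thinned to 2000 UMIs (155 treated, 116 control cells) and 1154 genes seen in at least 20% of them, Spearman's rho with the foam sum was highest for Cd9, at 0.533 in treated and 0.661 in control cells. Lgals3 followed with 0.439 and 0.515, then Anxa1 with 0.395 and 0.403, Ctsd with 0.359 and 0.492 and Ctsb with 0.357 and 0.472. Capg, Syngr1, Prdx1, Cd63, Vim, Lpl and Ctsl completed the 12 highest. The lowest were H2-Eb1 (-0.466 and -0.337), H2-Ab1 (-0.433 and -0.357), H2-Aa (-0.412 and -0.387), Cd74 (-0.407 and -0.408), Marcksl1 and Marcks. The cells of a library share its preparation, and these values are a description with no test.

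A further division, chosen after its values were seen, was by C1q. The sum over C1qa, C1qb and C1qc was 0 to 2 in 44 treated and 21 control members (28.2% and 17.8%), where Csf1r and Cd68 made up the rest of the lineage sum, and 30 or more in 85 and 78, with the rest between. Members low in C1q were deeper in the treated library, with a median of 9653 UMIs against 8605, and slightly shallower in the control library, with 9225 against 9549. Members low in C1q held more transcript of monocyte genes. The list summed to 4443 CPM in treated members low in C1q against 1946 in those with C1q, and to 4028 against 1988 in the control library. Vcan, the proteoglycan versican of classical monocytes, had 152 against 22.1 CPM in treated and 205 against 35.5 in control members, Clec4n (dectin 2) 1188 against 306 and 1248 against 306, and Plac8 434 against 142 and 992 against 225. Lower were the macrophage genes Ms4a7, at 111 against 1123 and 83.8 against 1058 CPM, and Adgre1, for the F4/80 antigen, at 98.7 against 441 and 69.9 against 370. The foam cell program was as high in the members low in C1q, at 20567 against 18708 CPM in treated and 20987 against 17100 in control members. In the treated library neutrophil markers were at 3666 against 1704 CPM and fibroblast markers at 282 against 6.02 CPM in the same split, and in the control library at 256 against 435 and 0 against 173 CPM. Their part in the split was not tested.

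**Figure D3:**
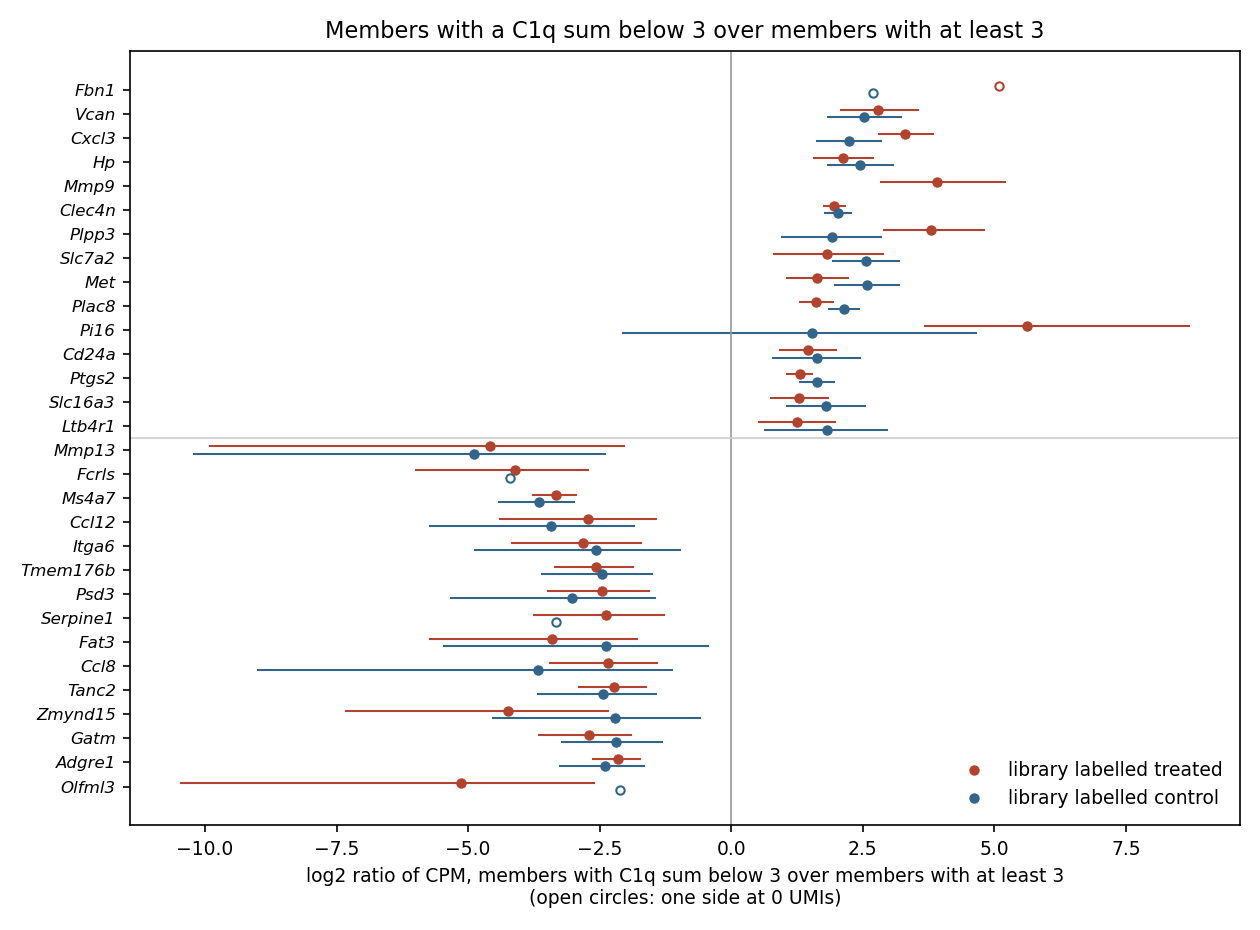
Points are log2 ratios of CPM, members with a C1q sum below 3 over members with at least 3, in the treated library (upper of each pair) and in the control library (lower), with 95% counting intervals, for the 15 highest and 15 lowest genes; open circles have 0 UMIs on 1 side. Vcan, Hp, Clec4n and Plac8 lie to the right and Ms4a7, Fcrls and Adgre1 to the left in both libraries.

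Members with Gpnmb, also split after values were seen, had more transcript of lipid storage and foam cell program genes. Gpnmb was found in 76 treated and 46 control members, whose median depth was 9330 and 9896 UMIs against 7861 and 8920 without it. Fabp5 stood at 3675 CPM in treated members with Gpnmb against 537 without, and at 3513 against 337 in control members. Mfge8 had 168 against 9.97 and 116 against 16.6 CPM, Atp6v0d2 172 against 39.9 and 195 against 13.6, and Ctsl 1834 against 610 and 1736 against 684. Lipid storage genes summed to 6004 against 2257 CPM in treated and 5702 against 2051 in control members, and the foam cell program to 24068 against 14032 and 25226 against 12428. Smaller gaps stood in lipid uptake, at 2462 against 1905 and 2655 against 1885 CPM, and in efflux, at 3578 against 2878 and 3250 against 2511 CPM, and sterol synthesis was at 280 against 299 and 255 against 280 CPM. Members with Gpnmb had less of the monocyte genes Ccr2 (75.5 CPM in treated and 68.4 in control members, against 201 and 197 without Gpnmb), Cx3cr1 (39.7 and 39.4, against 155 and 110) and Plac8, and of class II genes, at 14544 and 9501 CPM against 19876 and 14561.

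Between the libraries, few of the 4354 genes with at least 50 UMIs in 1 library were 1.5-fold or more apart: 178 (4.09%) were higher and 179 (4.11%) lower in treated members. The median log2 ratio of all was -0.01, 47.9% were above 0, and the central 95% ran from -0.69 to 0.70. Genes of the lists needed 20 UMIs over both libraries, and of the 8250 genes with that many 8.75% were at least 1.5-fold higher, 8.69% at least 1.5-fold lower and 48% above 0, with a median of -0.02. The lipid and lysosome programs had medians near this background, and interferon gamma response genes lay above it. Resident macrophage genes outside the gate had 5 of 12 at least 1.5-fold higher and 0 lower, with a median of 0.16. Matrix genes had 3 of 19 at least 1.5-fold higher and 5 lower, with a median of 0.11.

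Lipid handling lists differed little in their medians. The 20 genes of the foam cell program summed to 19318 CPM in treated and 17830 CPM in control members, 15 of 20 were above 0, 1 was at least 1.5-fold higher, 0 lower, and the median ratio was 0.11. That 1 was Pld3, for a lysosomal exonuclease, at 250 CPM in treated and 164 CPM in control members, a ratio of 0.61 (0.36 to 0.88). Cd9 had a ratio of 0.04 (-0.04 to 0.12), Lgals3 of 0.07 (0.02 to 0.12), Lpl of -0.07 (-0.21 to 0.07) and Fabp5 of 0.38 (0.30 to 0.47). Medians were 0.19 for 12 efflux genes, 0.18 for 14 storage genes and -0.01 for 10 uptake genes. At least 1.5-fold higher were 1 efflux, 2 storage and 0 uptake genes, against 8.75% of all genes. At least 1.5-fold lower were 0, 1 and 0, against 8.69%. Single genes ran from -0.35 to 0.77 in the efflux list and from -0.63 to 2.61 in the storage list. Abca1 stood at 637 and 639 CPM, a ratio of -0.01 (-0.15 to 0.14), Abcg1 at 0.37 (0.13 to 0.62), and Pltp, for a phospholipid transfer protein, at 446 and 309 CPM and 0.53 (0.34 to 0.72). Of 14 cathepsin and cystatin genes, the gate gene Ctsk among them, 11 were above 0 with a median of 0.15. Ctsk was the only 1 of them at least 1.5-fold higher, and 1 other was at least 1.5-fold lower, at -1.205. Ctss, for cathepsin S, stood at 4449 and 3283 CPM, a ratio of 0.44 (0.38 to 0.50). Lysosomal enzymes had a median of 0.11, the proton pump of -0.03 and oxidative phosphorylation of 0.08. Among the gate genes Gpnmb stood at 616 CPM in treated and 500 CPM in control members (0.30, 0.15 to 0.45), Spp1 at 10409 and 12234 CPM (-0.23, -0.27 to -0.20), Mmp12 at 1124 and 1794 CPM (-0.67, -0.77 to -0.58) and Ctsk at 396 and 254 CPM (0.64, 0.43 to 0.85), but the sign of Ctsk turned to -0.87 among members with at least 3 C1q UMIs. The 10 members with most Mmp12 held 57.65% of treated and 76.41% of control Mmp12 UMIs. After thinning, Mmp12 was seen in 32.9% of treated and 31.9% of control members, so its lower sum was not matched by a lower share of members.

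**Figure D4:**
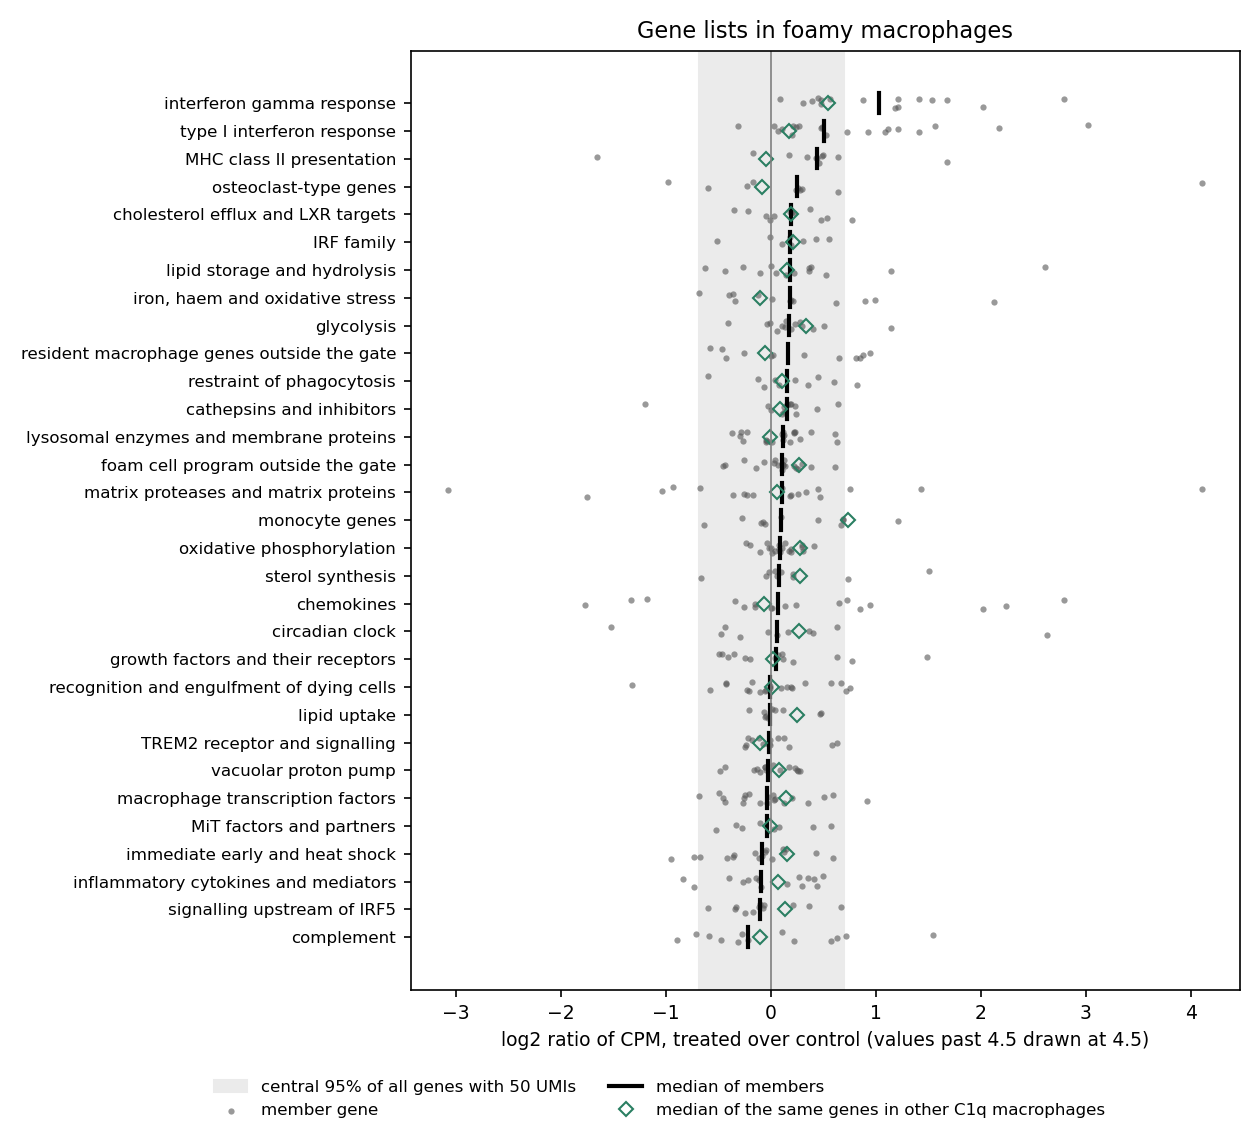
Each row is a gene list in foamy macrophages; points are its genes' log2 ratios of CPM, treated over control, the black bar is their median, the open diamond is the median of the same genes in other C1q macrophages, and the grey band is the central 95% of all genes (-0.69 to 0.70). The interferon gamma list is at the top with a median of 1.03 and 0.54 in other C1q macrophages, and most lists sit near 0.

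Interferon gamma response genes stood higher in treated members. Their 19 genes summed to 1353 CPM (1294 to 1413) in treated and 706 CPM (658 to 757) in control members, all 16 measured were above 0, and 9 were at least 1.5-fold higher against 8.75% of all genes at the same minimum of 20 UMIs, with a median of 1.03. In other C1q macrophages the same list had a median of 0.54, with 1959 and 1424 CPM. Cxcl10, which attracts T cells, stood at 414 CPM in treated and 102 CPM in control members, a ratio of 2.02 (1.73 to 2.31). It was found in 44 treated and 19 control members, and 28.2% of treated Cxcl10 UMIs lay in 1 cell. Gbp2 had 53.3 and 20.1 CPM (1.41, 0.72 to 2.14) over 29 and 13 cells, and Socs1, a feedback inhibitor of cytokine signalling, 59.3 and 32.4 CPM (0.88, 0.31 to 1.47). The class II activator gene Ciita had 19.6 and 6.12 CPM (1.68, 0.45 to 3.11) and the immunoproteasome gene Psmb8 224 and 161 CPM (0.48, 0.21 to 0.74). The top-ranked chemokine Cxcl9 rested on 7 treated and 3 control cells, 1 of which held 77.8% of its treated UMIs.

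Per cell the 2 libraries overlapped. Summed over the interferon gamma response list, treated members held a median of 6.69 UMIs per 10000, with quartiles of 3.84 and 12.2 and a highest value of 309. Control members held a median of 4.87, with quartiles of 2.54 and 9.13 and a highest value of 34.6. A few treated cells were thus far above any control cell, and the 5 highest held 37.0% of the list's treated UMIs, against 17.9% in control members. Without the 5 highest cells of each library the median over genes was 0.40, with 12 of 14 genes above 0. It was 0.65 among members with at least 3 C1q UMIs and 0.36 among those with at least 2 Trem2 UMIs, where Cxcl10 was at 0.44. It was 0.77 among members with at most 5 neutrophil marker UMIs, 1.61 with Spp1 left out of the gate's sum, and 0.48 over genes with at least 100 UMIs, 7 of 7 of them above 0.

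**Figure D5:**
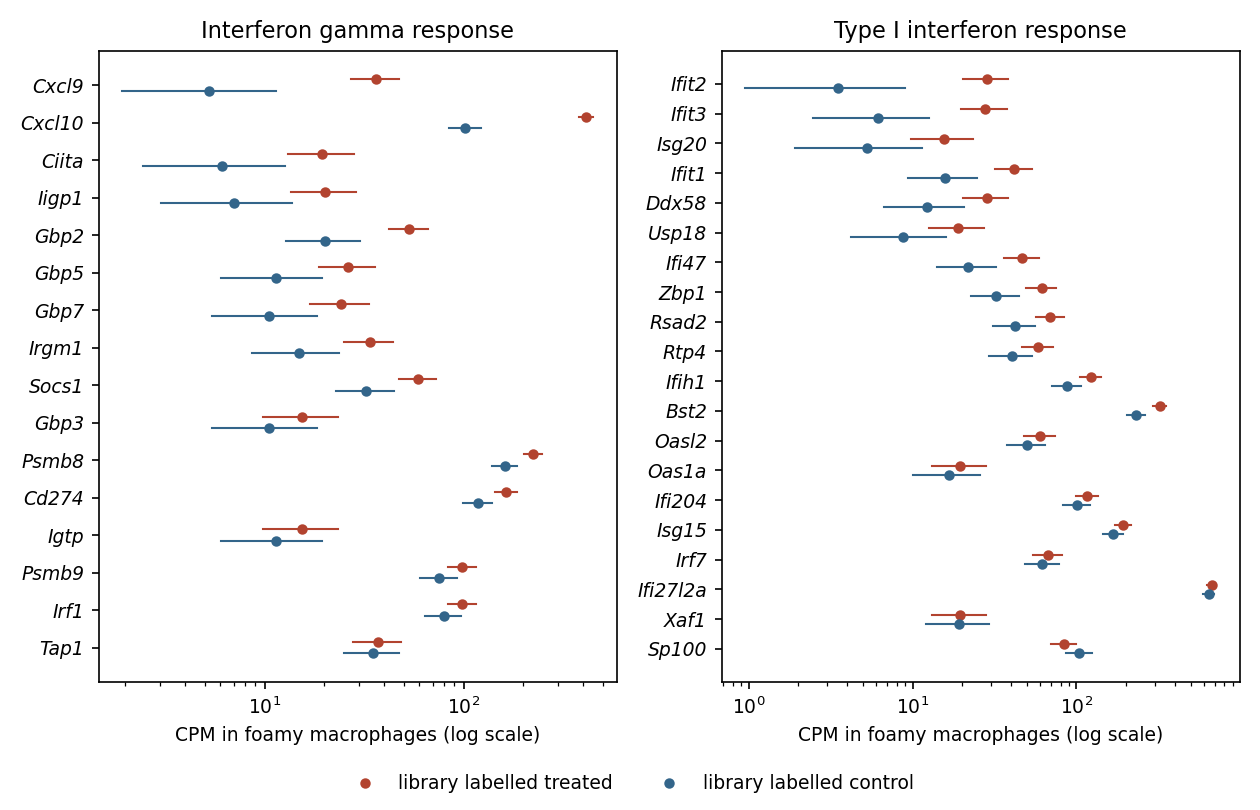
Points are CPM on a log axis in treated members (upper of each pair) and control members (lower), with 95% counting intervals, for the measured genes of the interferon gamma and type I interferon response lists, ordered by ratio. Treated values lie above control values for all 16 interferon gamma genes, with Cxcl10 at 414 and 102 CPM, while Isg15 at 193 and 168 CPM overlaps.

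Type I interferon response genes were higher by less. They summed to 2081 and 1674 CPM, 19 of 20 were above 0, 9 were at least 1.5-fold higher against the 8.75% of all genes, and the median was 0.51, against 0.18 in other C1q macrophages. The members of the IFIT family, which bind viral RNA, had few UMIs and wide intervals: Ifit1 stood at 41.8 and 15.7 CPM (1.41, 0.63 to 2.25), Ifit2 at 28.3 and 3.50 CPM (3.02, 1.55 to 4.96) and Ifit3 at 27.7 and 6.12 CPM (2.17, 1.0 to 3.58). The more abundant Isg15, a ubiquitin-like modifier gene, had 193 and 168 CPM (0.20, -0.07 to 0.47), and Bst2, for tetherin, 322 and 232 CPM (0.47, 0.25 to 0.70). Ifit1 was lower, at -0.29, among members with at least 2 Trem2 UMIs. The list median moved to 0.27 over genes with at least 100 UMIs, 10 of 11 of them above 0, and to 1.1 with Spp1 left out of the gate's sum.

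Most class II genes were also higher in treated members, by less than 1.5-fold. They summed to 17067 CPM in treated and 12425 CPM in control members, against 35812 and 42124 CPM in other C1q macrophages. The median was 0.44, against -0.05 there. In the members 9 of 11 were above 0, against 48% of all genes at the same minimum of 20 UMIs. H2-Ab1 and Ciita were at least 1.5-fold higher, against 8.75% of all genes, and Ciita was already given with the interferon gamma response genes. H2-DMb2, with 7 and 17 UMIs, was at -1.65 (-3.17 to -0.31), and 8.69% of all genes were at least 1.5-fold lower. H2-Ab1 stood at 2291 and 1477 CPM (0.63, 0.55 to 0.72), Cd74 at 7563 and 5377 (0.49, 0.45 to 0.54) and H2-Aa at 3550 and 2792 (0.35, 0.28 to 0.41). In single cells H2-Ab1 had a median of 7.56 per 10000 in treated and 1.56 in control members, with the third quartile at 39.3 and 22.5, and it was found in 119 of 156 and 72 of 118 members.

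Inflammatory cytokine genes, among the best known outputs of IRF5, were close to the background. The list had 7 of 15 genes above 0, against 48% of all genes, a median of -0.10 and 8892 and 9280 CPM. Its ratios ran from -0.84 to 0.50. Il1b stood at 2616 and 2823 CPM (-0.11, -0.18 to -0.04), Tnf at 710 and 556 CPM (0.35, 0.21 to 0.50) and Ptgs2, for cyclooxygenase 2, at 405 and 287 CPM (0.50, 0.30 to 0.70). Casp4, for an inflammatory caspase, was lower at 80.9 and 135 CPM (-0.73, -1.09 to -0.38). Signalling genes upstream of IRF5 were below 0 in 9 of 12 and above 0 in 3, with a median of -0.11. The IRF family had 6 of 8 above 0 with a median of 0.18. Of all genes 48% were above 0, and lists this short give no direction for the group. Nfkb1 stood at 698 and 984 CPM (-0.50, -0.62 to -0.37), and Irf8, for a factor that pairs with PU.1, at 161 and 119 CPM (0.43, 0.12 to 0.75). The directions within the group thus differed from gene to gene.

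Chemokine genes split: 10 of 18 were above 0, 7 at least 1.5-fold higher and 3 at least 1.5-fold lower, against 8.75% and 8.69% of all genes, with a median of 0.07. All 7 of the higher genes had counting intervals above 0, which do not cover the spread between cells. Cxcl9 was the highest at 2.795 (1.58 to 4.30), with 77.8% of its treated UMIs in 1 cell. Its sign turned to -0.70, from 4 and 5 UMIs, among members with at least 2 Trem2 UMIs. The monocyte attractants Ccl7 and Ccl12 were among the lower ones. Ccl7 stood at 200 CPM in treated and 684 CPM in control members, a ratio of -1.78 (-1.97 to -1.58), over 49 and 44 cells, and 28.8% of control Ccl7 UMIs lay in 1 cell. In other C1q macrophages Ccl7 stood at 1293 and 2042 CPM, a ratio of -0.66 (-0.71 to -0.61). Ccl12 stood at 49.2 and 124 CPM (-1.33, -1.76 to -0.92), its sign turning to 0.63 among members with Gpnmb. Ccl2 had -0.26 (-0.40 to -0.11) and Cxcl2, a neutrophil attractant, 6853 and 7643 CPM (-0.16, -0.20 to -0.12).

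Engulfment genes had a list median of -0.01 and ratios from -1.33 to 0.75, with 9 of 21 above 0, against 48% of all genes. Thbs1, for thrombospondin, stood at 659 and 391 CPM (0.75, 0.59 to 0.92) and Mertk, for a receptor of dying cells, at 122 and 82.2 CPM (0.57, 0.20 to 0.95), while Axl, a related receptor gene, stood at 121 and 122 CPM (-0.01, -0.34 to 0.32). Mfge8 had 93.1 and 58.6 CPM (0.67, 0.24 to 1.11) with the single cells described above. Anxa1, for the anti-inflammatory annexin, was lower at 612 and 826 CPM (-0.43, -0.57 to -0.30). Sirpa, for the receptor of the signal that restrains phagocytosis, stood at 432 and 317 CPM (0.45, 0.26 to 0.64). Of these, Thbs1 and Sirpa had like ratios in other C1q macrophages, 0.82 (0.71 to 0.94) and 0.43 (0.30 to 0.55), and Mertk had -0.13 (-0.41 to 0.16) there.

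Iron, haem and oxidative stress genes had 8 of 13 above 0, 4 at least 1.5-fold higher and 1 lower, against 8.75% and 8.69% of all genes, with a median of 0.18 that turned to -0.25 with Spp1 left out of the gate's sum. Ratios in the list ran from -0.69 to 2.13. Hmox1, for haem oxygenase, stood at 339 and 182 CPM (0.90, 0.66 to 1.14) and the cystine carrier gene Slc7a11 at 447 and 291 CPM (0.62, 0.43 to 0.81), but the sign of Slc7a11 turned to -0.25 with Spp1 left out of the gate's sum. Both were alike in other C1q macrophages, with 0.94 (0.81 to 1.08) for Hmox1 and 0.61 (0.49 to 0.73) for Slc7a11. Gdf15, a stress cytokine gene, stood at 495 and 289 CPM (0.77, 0.58 to 0.97), and Prdx1, for a peroxidase, at 2707 and 3574 CPM (-0.40, -0.46 to -0.34). Igf1 was lower, at 205 and 283 CPM (-0.47, -0.70 to -0.24), with -0.53 (-0.77 to -0.28) in other C1q macrophages. Complement genes had a median of -0.22 and ratios from -0.90 to 1.55, with 6 of 13 above 0, but the list holds C1q genes, which the gate counts. It summed to 1190 CPM in treated members with a C1q sum below 3 against 11906 in the rest, and to 941 against 12066 in control members. Members low in C1q were 28.2% of treated and 17.8% of control members, and their part in the list's values was not tested. C5ar1 stood at 235 and 386 CPM (-0.71, -0.92 to -0.51), C3ar1 at 237 and 358 CPM (-0.60, -0.81 to -0.39), and C4b at 48.6 and 16.6 CPM (1.55, 0.80 to 2.36).

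The genes at the ends of the ranking came mostly from few cells. Among the 12 highest were Retnlg (401 and 14 UMIs), S100a8 (931 and 149 CPM; 2.65, 2.41 to 2.89), S100a9 (1070 and 196 CPM; 2.45, 2.25 to 2.66), Stfa2l1, Hdc, G0s2 and Mmp9, of which Mmp9 had 67 and 0 UMIs. These are abundant in neutrophils. The 8 neutrophil markers, S100a8 and S100a9 among others, were all found in the members and summed to 2347 CPM (2270 to 2426) in treated and 401 CPM (365 to 440) in control members. Of these UMIs 86.3% of the treated and 65.1% of the control ones lay in 5 cells, and the highest cell held 928 and 259. Fbn1 and Prg4 came from 1 treated cell each, Pi16 had 94.0% and Saa3 90.6% of treated UMIs in 1 cell. Of the 12 lowest, Mgp, Gpr39, Mmp3 and Retnla had from 93.3% to 100% of control UMIs in 1 cell. Rnf180, a ubiquitin ligase gene, was spread over 45 treated and 50 control members at 49.9 and 164 CPM (-1.72, -2.13 to -1.32), with 63.3 and 180 CPM in other C1q macrophages. Plcl1 was spread over 33 and 38 members at 34.4 and 88.3 CPM (-1.36, -1.88 to -0.86).

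Markers of further cell types, beside the neutrophil and fibroblast markers given above, were summed in the members. T cell markers summed to 238 and 234 CPM with Cd8a and Cd8b1 at 0, and B cell markers to 27.7 and 49.8 CPM with Pax5 and Fcmr at 0. Plasma cell markers, immunoglobulin genes among them, summed to 515 CPM (479 to 552) in treated and 1716 CPM (1641 to 1794) in control members, and to 928 and 2845 CPM in other C1q macrophages. Natural killer, mast, smooth muscle, endothelial and dendritic cell markers each summed to at most 51.6 CPM, the dendritic ones mainly from 5 cells.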

How the data were processed

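Single-cell RNA was measured in 2 libraries of aortic CD45+ leukocytes, 1 labelled ZnDPA@siIRF5-treated and 1 labelled control. The deposited values are whole-number UMI counts per gene and barcode, not normalized, in filtered 10x matrices of 13155 and 12516 barcodes. Per the submitters' processing notes the tools were Cell Ranger 3.1.0 and Seurat 4.4.0 with mm10, while the matrix file headers name Cell Ranger 7.2.0, so the version behind the counts is uncertain. Genes with near-identical copies, such as those of the Ifit, Gbp, Ccl and Hspa1 families, can share reads, and their values carry that uncertainty.

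Barcodes with at least 500 genes and at most 15% mitochondrial UMIs were kept, and members were picked by UMI sums over marker genes as given in the text. Counts were summed over members in each library and expressed as CPM of the members' total (1483076 UMIs treated, 1143798 control). CPM carry exact Poisson intervals, log2 ratios exact conditional binomial intervals and shares exact Clopper-Pearson intervals, all at 95% and covering counting error only. A side at 0 was set to 3 UMIs, giving a bound. No test was run, since each group had 1 library. Other C1q macrophages and T cells (at least 2 Cd3e UMIs, at most 2 over the lineage genes) were taken with the same filters. Genes were compared between libraries at a minimum of 50 UMIs in 1 library, and list members at 20 UMIs over both. Shares of cells with a UMI were repeated after thinning each cell to 2000 UMIs (seed 1).

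Members and gene lists were chosen with earlier results of these data known. Genes named were taken from the gate, Irf5 and the 12 highest and 12 lowest ratios between libraries at 20 CPM or more. Also used were the 20 highest and 12 lowest of foamy over other C1q macrophages by the smaller ratio. The 12 highest and 6 lowest correlations with the foam sum were named too. Further members of the lists were named for their ratio or level, and these were not always the members with the largest ratios. One gene of the interferon gamma response list is not reported here and enters none of that list's values. Left out of the rankings were predicted genes, sex-linked genes, receptor segments of B and T lymphocytes, and the genes of haemoglobins, ribosomal proteins and the mitochondrial genome. Doublets were called with Scrublet (scanpy 1.11.5) and not removed in the values given. Gene positions are from GENCODE vM21, and promoter windows from RefSeq. The rest used Python 3.11.15, numpy 2.4.6, scipy 1.17.1, pandas 2.3.3 and matplotlib 3.10.9. The ratio and interval steps were tested on simulated data.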

Additional observations from a re-analysis of the deposited data

How the results depend on the processing

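No paired analysis was possible because each group had 1 library and no replicate number. Values were recomputed under alternatives listed at the start and under others added after seeing the data. Those added were the foam sum without Spp1, members with Gpnmb and a C1q sum of 3 in members and in the denominator. At most 5 neutrophil UMIs and lists without their 5 highest cells were also added then. Of 1533 recomputed gene ratios between the libraries 1281 stayed within the counting interval of the value given, 237 moved out of it and 15, of genes at least 1.5-fold apart, changed sign. Of 494 list medians 484 moved by less than the median half-width of their genes' counting intervals, a wide margin for lists of scarce genes. The other 10 were, without Spp1 in the foam sum, inflammatory cytokines (-0.48), chemokines (-0.22), type I interferon response (1.1) and iron and haem genes (-0.25), at a C1q sum of 3 chemokines (-0.27) and matrix genes (-0.15), matrix genes among members with Gpnmb (-0.12), matrix (-0.17) and monocyte genes (0.54) at a foam sum of 10, and inflammatory cytokines without their 5 highest cells (0.16). Without a UMI minimum, 1976 genes were 1.5-fold higher and 1720 lower, of 12142, and with 200 UMIs 26 and 30, of 1280. Lower genes numbered 119 of 2834 without Spp1 in the foam sum and 113 of 2623 among members with Gpnmb, and higher genes 117 of 3430 at a C1q sum of 3. Genes 2-fold lower in foamy than in other cells in both libraries numbered 392 and 405 without Spp1 and among members with Gpnmb. The share of kept barcodes became 1.54% in treated at 1000 genes, 1.52% at a foam sum of 3, 1.03% and 0.764% in treated and control at a foam sum of 10, 1.03% and 0.797% at 2 Trem2 UMIs, 0.642% and 0.390% (ratio 1.64) without Spp1, and 1.55% in treated with at most 5 neutrophil UMIs. Of C1q macrophages it was 5.29% and 6.79% (ratio 0.779). Unthinned shares in treated and control were 91.7% and 91.5% for Spp1, 48.7% and 39.0% for Gpnmb, 42.9% in treated for Mmp12, and 25% and 16.9% for Ctsk, and thinning to 4000 UMIs gave 90.0% in control for Spp1. Signs turned at 2 Trem2 UMIs for Cxcl9 (-0.70), Ifit1 (-0.29) and Mmp3 (0.21), without the top cell for Pi16 (-0.79), Saa3 (-0.20) and Retnla (1.56), without Spp1 for Timp3 (1.06) and Slc7a11 (-0.25), among members with Gpnmb for Saa3 (-0.82), Retnla (2.31), Timp3 (0.89), Mmp13 (1.63) and Ccl12 (0.63), and at a C1q sum of 3 for Ctsk (-0.87) and Pi16 (-0.69). Beyond the smaller number of cells or genes that each setting leaves, the cause was not tested. At most 1 UMI of T, B, plasma and neutrophil markers left 1 and 0 cells, so no value could be had. Depth limits the scarce genes: the ratio of Ciita, with 29 and 7 UMIs, had an interval of 0.45 to 3.11.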
